A study of Mus musculus with 6 samples.

Results

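The genes described here are those of the RhoA, ROCK kinase and myosin phosphatase pathway, taken as 10 symbols: Rhoa, Rock1, Rock2, Ppp1r12a, Ppp1r12b, Ppp1r14a, Ppp1cb, Arhgef1, Arhgef11 and Arhgef12. All 10 were listed among the 32179 genes of the deposited table, and all 10 were among the 12735 genes whose mean value over the libraries was at least 10, which were tested. The libraries were bulk RNA sequencing of vascular smooth muscle cells sorted out of skeletal muscle, from male C57BL6J mice aged 8 to 24 weeks. The iSM-G5C-KO group (KO, 3 libraries) had the orphan G protein-coupled receptor GPRC5C depleted from smooth muscle after tamoxifen. The control group (3 libraries) also received tamoxifen and is labelled wild type for genotype, although every sample of both groups is described as Gprc5c-floxed. All mice carried the mTmG reporter, in which cells that have undergone Cre recombination turn from red to green fluorescence, and EGFP-positive cells were sorted after depletion of cells that bound antibodies to CD31, CD45 or Ter119. The sources used here give neither the promoter that drives Cre nor whether each library came from a different animal. The p-values therefore measure only the spread between these libraries, which may be partly technical.

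In smooth muscle, contraction follows the phosphorylation of the myosin light chain. Calcium and calmodulin switch on myosin light chain kinase, and myosin phosphatase removes the phosphate again. Receptors that couple to the G proteins G12 and G13 recruit exchange factors with an RGS domain, which load the small GTPase RhoA with GTP. Active RhoA binds ROCK, which phosphorylates the targeting subunit of myosin phosphatase and the inhibitor CPI-17, so that the phosphatase is restrained and force is kept at a given calcium level. This calcium sensitisation is a main route by which vasoconstrictor receptors set the tone of small arteries.

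The depth was 1479069 to 2581454 estimated reads in KO libraries and 1556750 to 2935114 in controls. Control library 3 had 29707 genes above 0, against 20481 to 21179 in the other libraries. It also had 7733 genes at a value of 1, against 2734 to 3867, and why it differed was not tested. Gprc5c, the targeted gene, was at 328, 305 and 360 normalised counts in KO libraries, against 428, 532 and 497 in controls (log2 fold change -0.55). Every KO library was below every control. From limma its unadjusted p was 0.00323, its adjusted p 0.999 without and 0.142 with the library number as a block. Smooth muscle markers (9 of 9 listed) summed to 12193, 10267 and 11598 in KO libraries 1, 2 and 3, against 11922, 12216 and 12140 in control libraries 1, 2 and 3. Pericyte markers (8 of 8 listed) summed to 10875, 13784 and 18088, against 10197, 12100 and 15680. Skeletal muscle fibre markers ranged from 2074 to 8898 in KO libraries, against 1475 to 3460 in controls. In KO library 3, which had the highest fibre sum, Ttn alone was at 5386, against 868 in control library 3. Neb, Ryr1, Myh2 and Myh4 were also higher there than in control library 3, while Ckm, Acta1, Tnni2, Myh1 and Tnnt3 were lower. Fibroblast markers ranged from 2530 to 4311 in KO libraries, against 3069 to 4510 in controls. Endothelial markers ranged from 396 to 922, against 338 to 671, leukocyte markers from 108 to 463, against 114 to 494, and erythroid markers from 19 to 45, against 11 to 27. Satellite cell markers ranged from 36 to 61, against 40 to 64, and Schwann cell markers from 115 to 184, against 99 to 178. Library numbers 1 to 3 occur in both groups, and libraries of the same number deviated together from their group means, so KO and control libraries are also set side by side by number.

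None of the 10 pathway genes differed between KO and control libraries beyond the spread between replicates. With limma over all tested genes, 0 of 10 passed an adjusted p of 0.05 and 0 of 10 had an unadjusted p under 0.05, against 0% and 1.81% of all tested genes. The values of the groups overlapped for 10 of 10, where 4.91% of all tested genes did not overlap. The adjusted p was 0.999 for each. Of the 10 fold changes, 8 were below 0 and 2 above, with a median of -0.076 on the log2(value + 1) scale, against a median of 0.001 over all tested genes, 49.8% of which were below 0. The split was 7 below and 3 above with upper-quartile scaling, where Rock2 turned, 6 and 4 with sample quality weights, where Arhgef1 and Arhgef11 turned, and 5 and 5 with length and GC trends removed, where all 3 of these genes turned. The 95% confidence interval of each fold change, from the same fit and not adjusted for the number of genes, included 0 in 10 of 10 and excluded a log2 change of -1 and of 1 in 10 of 10.

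**Figure D1:**
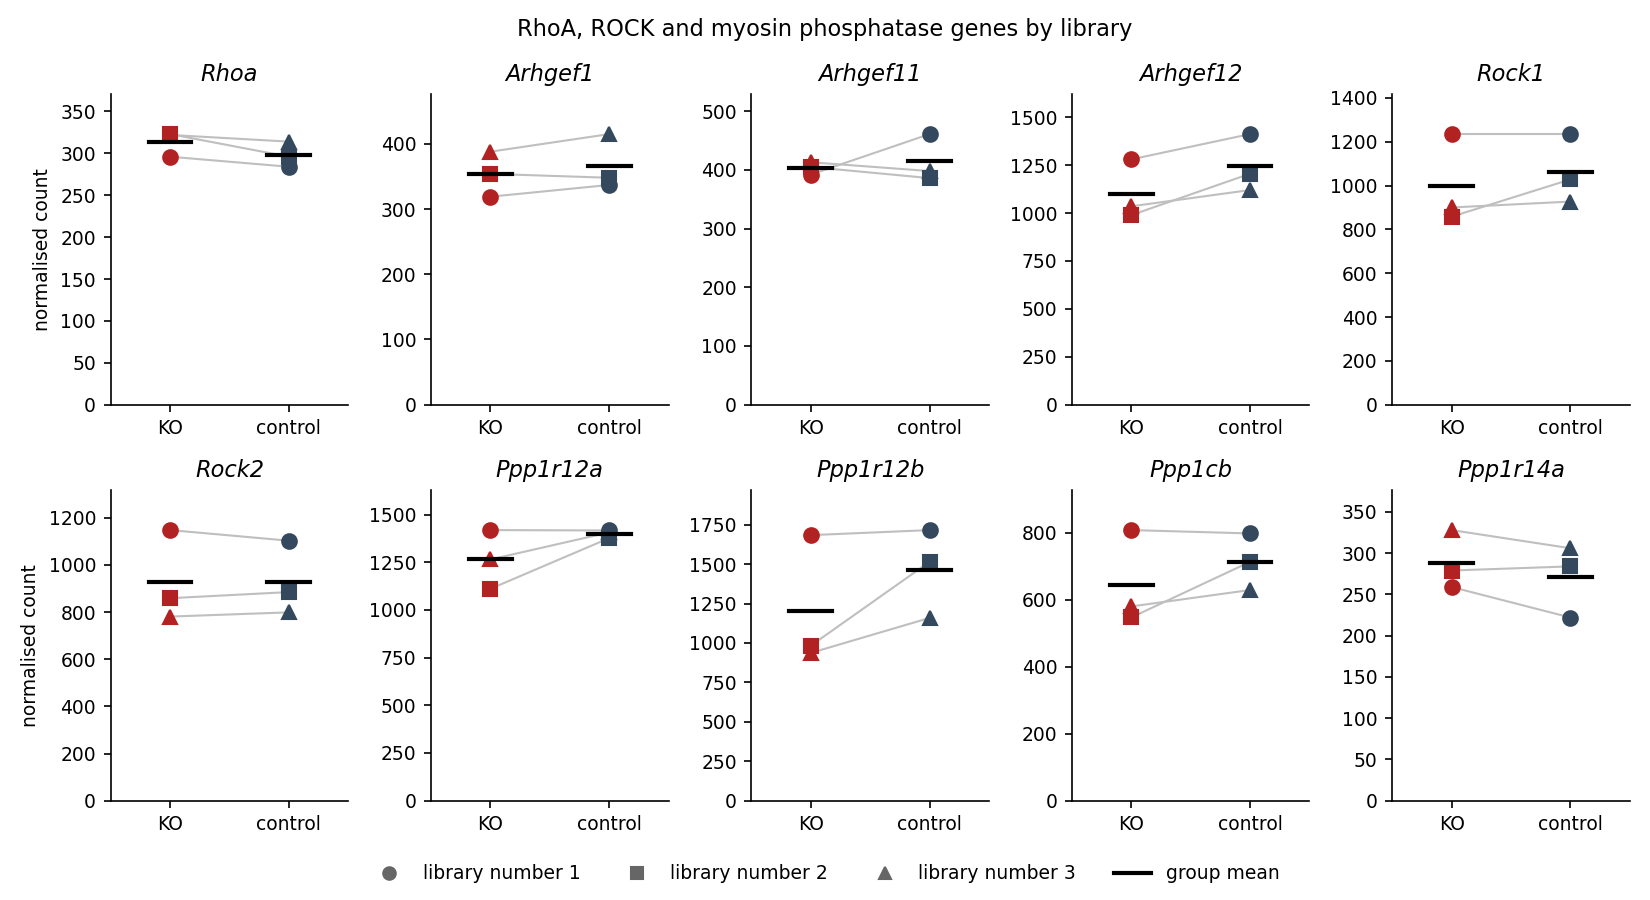
Normalised counts (y axis, from 0) of the 10 pathway genes in KO and control libraries (x axis). Each point is a library, its shape gives the library number, grey lines join libraries of the same number and black bars are group means. The groups overlap in all 10 panels.

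RhoA itself, the GTPase at the centre of the pathway, is encoded by Rhoa (ENSMUSG00000007815, chromosome 9, 108306129 to 108337934, plus strand, GRCm38). It was at 296, 323 and 322 normalised counts in KO libraries 1, 2 and 3, against 284, 296 and 314 in control libraries 1, 2 and 3. The KO values were a little higher in every same-numbered pair, and the ranges of the groups overlapped. The means were 313.7 ± 15.3 in KO libraries and 298.0 ± 15.1 in controls (SD, n = 3 each), a log2 fold change of 0.074 ± 0.108. (SE) The interval, given here and below as a percent change, ran from -11.7% to 25.4% and was the narrowest of the 10 on the log2 scale. KO libraries were higher in all same-numbered pairs for 14% of all tested genes.

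The 3 exchange factors with an RGS domain are Arhgef1, Arhgef11 and Arhgef12 (also called LARG), which link G12 and G13 to RhoA. Arhgef12 (ENSMUSG00000059495, chromosome 9, 42963842 to 43105987, minus strand) was at 1280, 989 and 1035 in KO libraries, against 1412, 1205 and 1120 in controls. Each KO library lay below the control library of its number, yet KO library 1 lay above control libraries 2 and 3. The means were 1101.3 ± 156.4 and 1245.7 ± 150.2 (SD, n = 3 each), a log2 fold change of -0.18 ± 0.152 (SE) and an interval from -30.9% to 12.8%.

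Arhgef11 (ENSMUSG00000041977, chromosome 3, 87617575 to 87738033, plus strand) was at 392, 405 and 413 in KO libraries, against 461, 386 and 398 in controls. Control library 1 was the highest of the 6 and control library 2 the lowest, just under the KO range (log2 fold change -0.037, interval -19.1% to 17.4%). In the annotation, 991 bp of its exons overlap exons of Lrrc71 on the other strand, and the sources used here do not say whether counting used strand. Arhgef1 (ENSMUSG00000040940, chromosome 7, 24902912 to 24926594, plus strand) was at 319, 354 and 388 in KO libraries, against 337, 348 and 415 in controls. Both groups had their lowest value in library 1 and their highest in library 3, and the log2 fold change was -0.050 (interval -22.2% to 19.8%).

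The kinases ROCK1 and ROCK2 are the effectors that carry the signal of RhoA to myosin phosphatase. Rock1 (ENSMUSG00000024290, chromosome 18, 10064401 to 10181792, minus strand) was at 1235, 858 and 900 in KO libraries, against 1235, 1028 and 927 in controls. The libraries numbered 1 had the same value, and the KO library numbered 2 was the lowest of the 6. The means were 997.7 ± 206.6 and 1063.3 ± 157.0 (SD, n = 3 each), a log2 fold change of -0.10 with an interval from -30.4% to 24.9%. Rock2 (ENSMUSG00000020580, chromosome 12, 16894895 to 16987823, plus strand) was at 1148, 859 and 781 in KO libraries, against 1103, 885 and 799 in controls. Its group means were nearly the same, 929.3 ± 193.3 and 929.0 ± 156.7 (SD, n = 3 each), while its values differed widely between library numbers in both groups. The interval of its fold change, from -26.4% to 34.8%, leaves room for changes in either direction.

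Myosin phosphatase consists of a catalytic subunit, the beta isoform of protein phosphatase 1 (Ppp1cb), held on myosin by a targeting subunit, MYPT1 (Ppp1r12a) or its relative MYPT2 (Ppp1r12b). Ppp1r12a (ENSMUSG00000019907, chromosome 10, 108162193 to 108277575, plus strand) was at 1419, 1111 and 1265 in KO libraries, against 1417, 1377 and 1407 in controls. The controls lay close together, KO library 1 was level with them and KO libraries 2 and 3 were below them. The means were 1265.0 ± 154.0 and 1400.3 ± 20.8 (SD, n = 3 each), a log2 fold change of -0.15 ± 0.130 (SE) and an interval from -27.1% to 10.9%.

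Ppp1r12b (ENSMUSG00000073557, chromosome 1, 134754658 to 134955942, minus strand) showed the lowest fold change of the 10 and the widest spread. It was at 1684, 983 and 937 in KO libraries, against 1716, 1515 and 1159 in controls. KO libraries 2 and 3 lay below every control, while KO library 1 lay above control libraries 2 and 3. The means were 1201.3 ± 418.6 and 1463.3 ± 282.1 (SD, n = 3 each), a log2 fold change of -0.32 ± 0.255 (SE) and an interval from -46.9% to 20.9%. Without KO library 1 the log2 fold change was -0.59, and without KO library 3 it was -0.17.

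Ppp1cb (ENSMUSG00000014956, chromosome 5, 32458843 to 32495523, plus strand) was at 808, 547 and 580 in KO libraries, against 798, 713 and 629 in controls. As for Ppp1r12b, the KO libraries numbered 2 and 3 were the lowest and the libraries numbered 1 were nearly equal. The log2 fold change was -0.16 (interval -32.8% to 19.1%). In the annotation, 1908 bp of its exons are shared with the unverified transcript Gm43312 on the same strand.

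CPI-17, the inhibitor of myosin phosphatase that protein kinase C and ROCK activate, is encoded by Ppp1r14a (ENSMUSG00000037166, chromosome 7, 29289308 to 29293801, plus strand) and is known as a smooth muscle protein. It was at 259, 279 and 328 in KO libraries, against 222, 284 and 306 in controls. Numbers 1 and 3 were higher in the KO library and number 2 slightly lower, within the overlap of the groups. The means were 288.7 ± 35.5 and 270.7 ± 43.6 (SD, n = 3 each), a log2 fold change of 0.099 ± 0.160 (SE) and an interval from -17.3% to 38.7%. Without control library 1 the sign turned (-0.037).

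**Figure D2:**
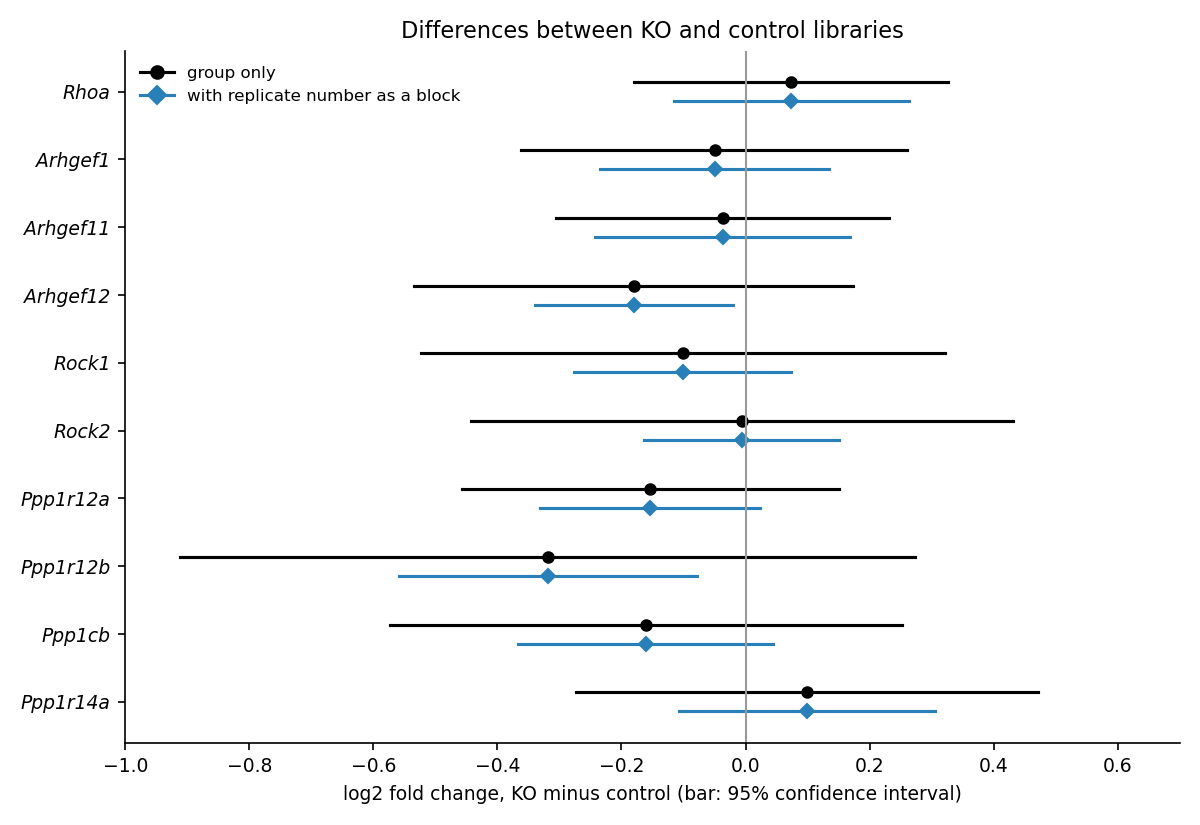
Log2 fold change of KO over control for each gene (x axis), with 95% confidence intervals, from the fit on group alone (black circles) and with the library number as a block (blue diamonds). All 10 black intervals include 0, and with the block those of Ppp1r12b and Arhgef12 do not.

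Setting libraries side by side by number narrowed the intervals and changed no call. With the library number as a block, 2 of 10 genes, Ppp1r12b and Arhgef12, had an unadjusted p from limma under 0.05, where 10.2% of all tested genes did. Their unadjusted p was 0.0149 and 0.0319 and their limma adjusted p 0.344 and 0.438. With the block 0 of 10 passed the adjusted threshold, against 0.00785% of all tested genes. The KO library was lower in every pair for these 2 genes, which 15.4% of all tested genes were. Between libraries numbered 1, 2 and 3, Ppp1r12b differed by -0.027, -0.62 and -0.31 on the log2(value + 1) scale, KO minus control. Ppp1r12a differed by 0.002, -0.31 and -0.15 and Ppp1cb by 0.018, -0.38 and -0.12. The components of the phosphatase holoenzyme thus hardly differed between the libraries numbered 1 and differed most between those numbered 2. The sum of smooth muscle markers was also lowest in KO library 2, at 10267 against 12216 in its control, and its part in these differences was not tested. In bulk RNA, fewer cells of a type and less RNA per cell cannot be told apart.

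**Figure D3:**
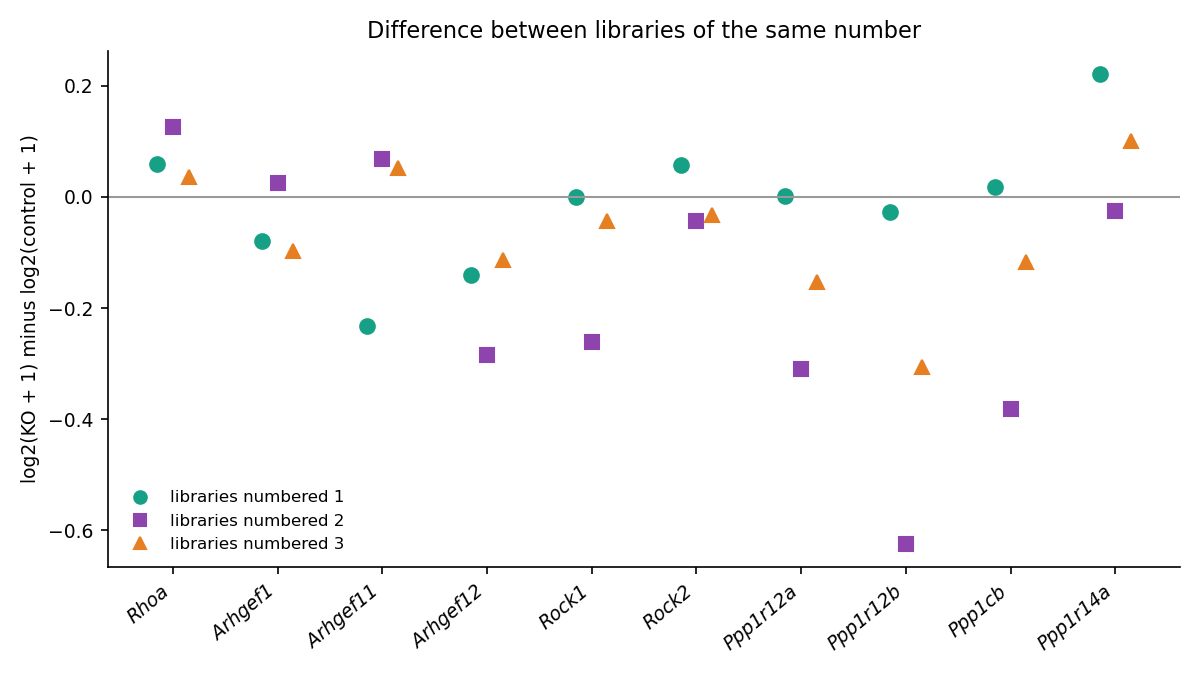
Difference in log2(value + 1), KO minus control, between libraries of the same number (y axis) for each gene (x axis), with 1 symbol per library number. The lowest points are those of the libraries numbered 2 for Ppp1r12b (-0.62), Ppp1cb (-0.38) and Ppp1r12a (-0.31).

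Ratios of 2 genes within a library do not depend on how libraries were scaled, and 6 were compared with exact permutation tests, for which 0.1 is the smallest p that 3 against 3 libraries allow, or 0.25 for sign flips over 3 pairs. No ratio could therefore pass, and the ratios are given as values. The ratio of the inhibitor to the targeting subunit, Ppp1r14a to Ppp1r12a, was 0.183, 0.251 and 0.259 in KO libraries 1, 2 and 3, against 0.157, 0.206 and 0.217 in controls. It was higher in the KO library of every pair, by 0.22, 0.28 and 0.25 on the log2 scale, and the groups overlapped. The mean difference was 0.25, a ratio 19.1% higher in KO libraries (exact permutation p = 0.3, 2-sided, BH-adjusted p = 0.6 over 6 ratios). Leaving out control library 1 brought the mean difference to 0.11, and leaving out KO library 1 brought it to 0.41. The lengths of these transcripts differ, 0.95 kb for Ppp1r14a and 3.40 kb for Ppp1r12a, so the size of the ratio itself is not one of molecules.

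The groups overlapped for the other 5 ratios too, with the same BH-adjusted p of 0.6 from exact permutation tests. In 4 of these 5 the difference had the same sign in every pair. For single genes, KO libraries were lower in every pair for 15.4% and higher for 14% of all tested genes. Several of the ratios share Ppp1r12a or Arhgef12, so their signs are not separate, and no share over other ratios was computed. Mylk encodes myosin light chain kinase, which opposes the phosphatase. Its ratio to Ppp1r12a was 1.693, 1.807 and 1.778 in KO libraries, against 1.668, 1.761 and 1.646 in controls (exact permutation p = 0.2). It varied little in both groups, was higher in the KO library of each pair, and differed by 0.057 on the log2 scale on average. The Rock1 to Rock2 ratio was 1.076, 0.999 and 1.152 in KO libraries, against 1.120, 1.162 and 1.160 in controls (exact permutation p = 0.2), lower in the KO library of each pair. Ppp1r12b to Ppp1r12a was 1.187, 0.885 and 0.741, against 1.211, 1.100 and 0.824 (exact permutation p = 0.6). It was lower in the KO library of each pair, and the libraries numbered 1 and 3 were further apart than KO and control libraries of any number. Arhgef1 to Arhgef12 differed by 0.13 on the log2 scale, with the KO library higher in each pair (exact permutation p = 0.6), and Arhgef11 to Arhgef12 by 0.14 (exact permutation p = 0.4).

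**Figure D4:**
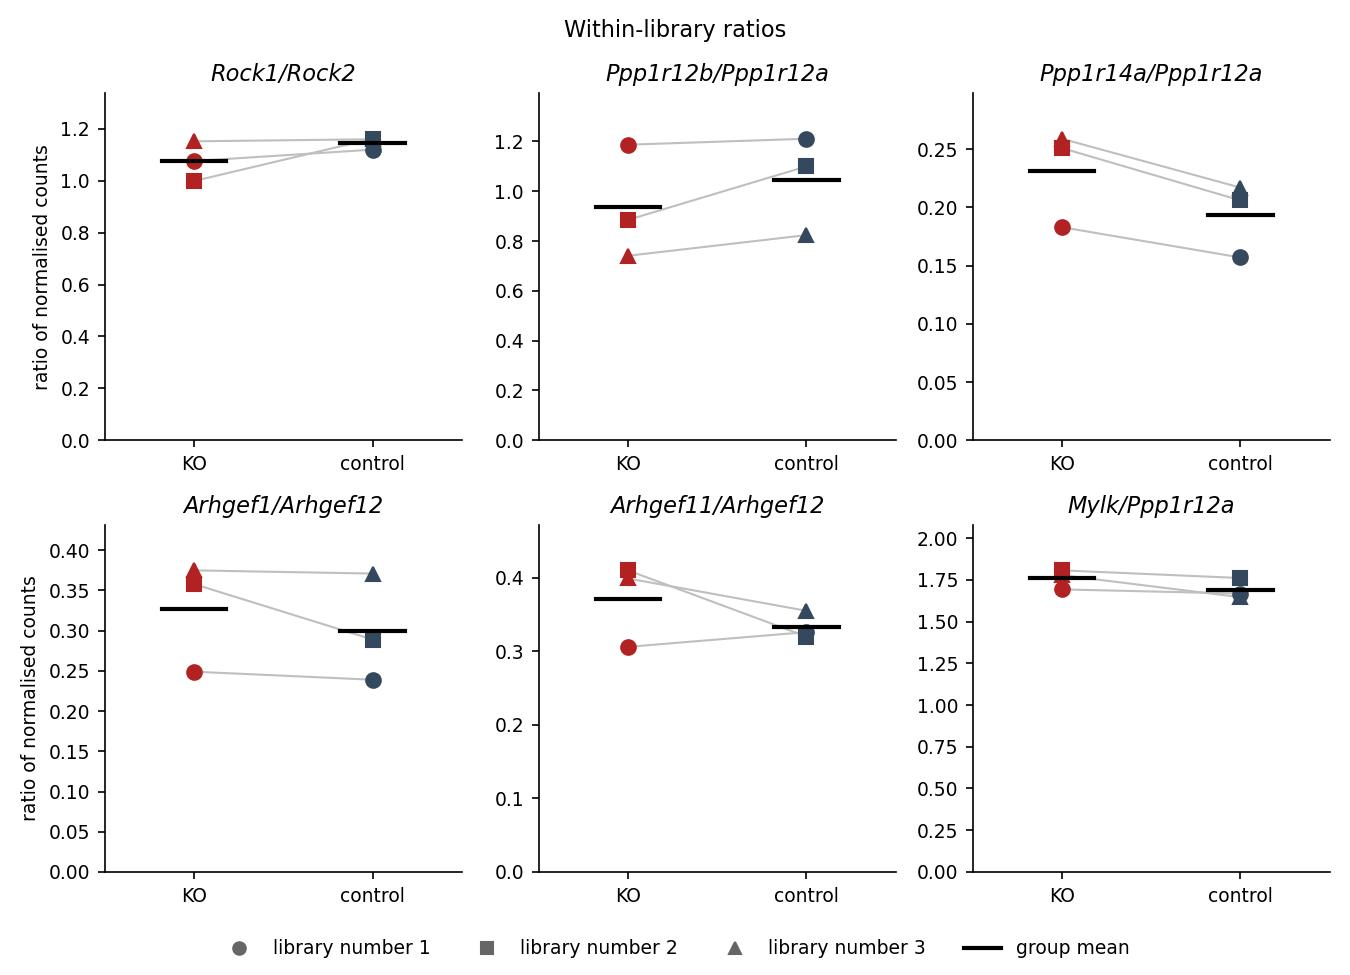
Ratio of the normalised counts of 2 genes within each library (y axis, from 0) in KO and control libraries (x axis). Symbols give the library number, grey lines join same-numbered libraries and black bars are arithmetic means. Ppp1r14a to Ppp1r12a is higher in the KO library of 3 of 3 pairs, and the groups overlap in all 6 panels.

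The sequences before the starts of Ppp1r14a and Ppp1r12a are shown because their ratio had the largest difference of the 6 in the same direction in every pair. They are the 250 bases before the RefSeq start (GRCm38.p6, plus strand, 5′ to 3′), at chr7:29289070-29289319 and chr10:108161848-108162097, with GC boxes (GGGCGG on either strand) in capitals.
Ppp1r14a: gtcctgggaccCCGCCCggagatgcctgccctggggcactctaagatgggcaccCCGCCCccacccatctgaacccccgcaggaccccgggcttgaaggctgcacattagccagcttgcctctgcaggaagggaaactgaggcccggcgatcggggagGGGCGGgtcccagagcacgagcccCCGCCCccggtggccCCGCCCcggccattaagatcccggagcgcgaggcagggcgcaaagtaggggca
Ppp1r12a: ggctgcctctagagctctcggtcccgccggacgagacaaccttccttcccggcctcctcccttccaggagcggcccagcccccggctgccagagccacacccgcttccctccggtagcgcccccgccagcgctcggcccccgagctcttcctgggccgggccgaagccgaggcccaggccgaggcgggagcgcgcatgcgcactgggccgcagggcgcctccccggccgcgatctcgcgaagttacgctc
The Ppp1r14a sequence holds 5 GC boxes and the Ppp1r12a sequence 0, and their GC content is 71.2% and 75.2%. RefSeq windows of 300 bases, from 250 before to 50 after a start, were at hand for 9 of the 10 genes, 12 windows in all. GC content in these windows was 52.7% to 84.7%, where the median of all 32851 windows was 52.7%. A GC box was found in 10 of 12 windows and in 35.7% of all windows. In these windows, which also cover 50 bases after the start, Ppp1r12a had 2 GC boxes and Ppp1r14a 5. The CArG box, the motif bound by serum response factor in many contractile genes, was found in 0 of 12 windows and in 1.63% of all windows. A TATAAA motif on either strand was in 1 of 12 windows, at a Rhoa start, and in 13.6% of all. These matches describe the letters in the windows only.

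Levels were compared between genes per kilobase of the longest coding transcript in GENCODE M21 (GRCm38), over all 6 libraries. Ppp1r12a was highest at 391.6 normalised counts per kb, above 99.8% of tested coding genes, followed by Ppp1r14a at 294.4, above 99.3%. Their ranges over libraries overlapped, and both lay above every library of the next gene, Rock1, at 160.0 per kb. Ppp1r12b (150.7), Rhoa (139.2), Rock2 (121.6), Ppp1cb (113.9), Arhgef12 (109.1) and Arhgef1 (102.7) followed, each overlapping its neighbours in range. Arhgef11, at 60.4 per kb, lay below every library of Arhgef1. The median of the tested coding genes was 33.0 per kb. The ends of some genes differ between the deposited annotation and GENCODE M21, for Ppp1r12a 108277575 and 108284475. With the union of all annotated exons as the length, Ppp1r14a (204.6 per kb) and Ppp1r12a (166.2 per kb) changed places at the top. The share of tested genes below them was not computed by the union length. Rhoa, whose union is 7.49 kb against a transcript of 2.20 kb, came last. By this length Arhgef11, at 51.5 per kb, stood above Arhgef1, at 46.6, while Arhgef12 had rank 4 and Rock1 rank 7. The order of the genes, at the top and below it, thus depended on the length used.

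Values of the 10 genes also differed between library numbers. The range of the 3 means over numbers exceeded the size of the fold change, a difference of 2 means, in 10 of 10, as it did in 87.8% of all tested genes, with a median range of 0.36 on the log2 scale, against 0.39 over all tested genes. Libraries numbered 1 were above those numbered 3 by 0.71 for Ppp1r12b, 0.51 for Rock2, 0.44 for Rock1, 0.41 for Ppp1cb and 0.32 for Arhgef12. They were below them by -0.40 for Ppp1r14a, -0.29 for Arhgef1 and -0.13 for Rhoa. The genes with transcripts over 5 kb were all higher in the libraries numbered 1 (6 of 6, median 0.42), and those of 5 kb or less had a median of -0.21 (4 genes). Over all tested coding genes the same medians were 0.19 for 2762 longer and -0.026 for 8948 shorter transcripts. Of these longer genes 68.0% were higher in the libraries numbered 1, and of the shorter 47.5%. Depth was also highest in the libraries numbered 1 of both groups. The pericyte, endothelial, fibroblast and skeletal muscle fibre marker sums were lowest there, and the satellite cell and Schwann cell sums highest. The part of depth, transcript length and cell composition in this spread was not tested.

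**Figure D5:**
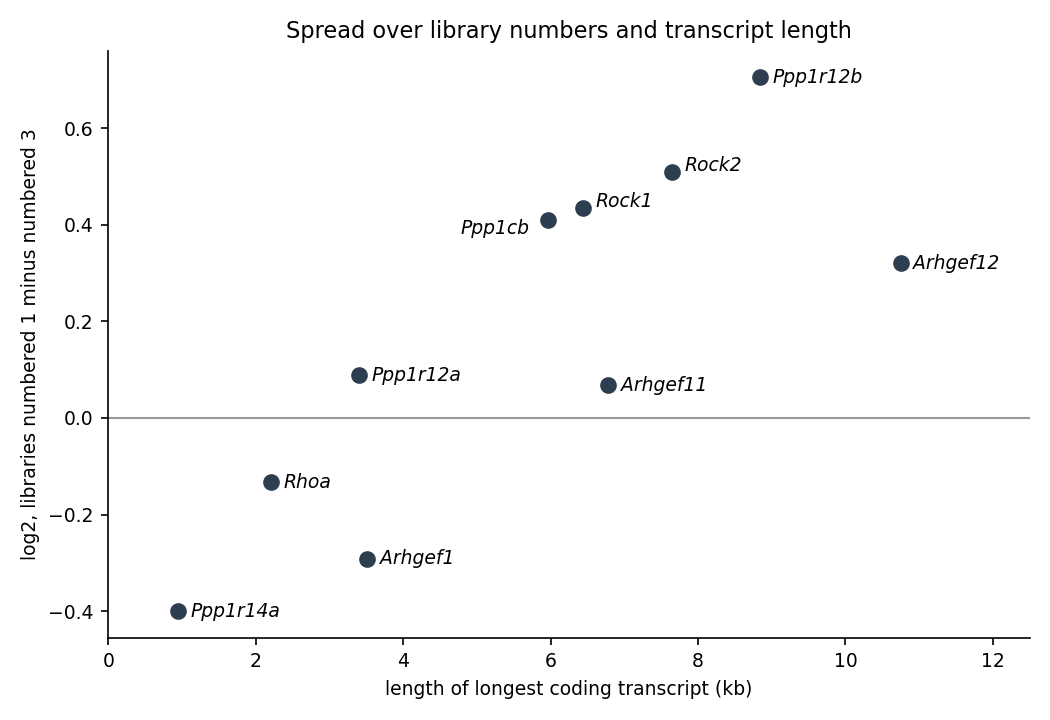
Difference in mean log2(value + 1) between the libraries numbered 1 and numbered 3 (y axis) against the length of the longest coding transcript (x axis, kb), with 1 point per gene. The values run from -0.40 for Ppp1r14a to 0.71 for Ppp1r12b.

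All 6 genes with longer transcripts had a fold change below 0, with a median of -0.13, and of the 4 shorter ones 2 did. Among all tested coding genes 63.1% of the longer and 45.2% of the shorter transcripts had a fold change below 0. With trends on exon length and GC content removed together in each library, the median of the 10 genes was -0.018. The part of transcript length in these fold changes was not tested.

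The rest of the pathway was described by 8 lists with 135 genes in all, 124 of them tested. With limma over all genes, 0 of 124 passed, and 0 had an unadjusted p under 0.05, against 1.81% of all tested genes. With the block 0 of 124 passed, and 20 of 124 had an unadjusted p from limma under 0.05, against 10.2% of all tested genes. By list this count ran from 0 of 4 upstream G proteins to 6 of 21 RhoA inhibitors. List medians of the log2 fold change ran from -0.038 to 0.058, beside 0.001 over all tested genes. The genes named in each list are the 2 with the smallest p among those with a mean of at least 50, and each had an adjusted p of 0.999.

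Among the other exchange factors (21 tested, median 0.058), Net1, a RhoA exchange factor of the nucleus, was at 424, 210 and 172 in KO libraries, against 437, 426 and 272 in controls. The libraries numbered 1 were nearly equal, and Net1 was lower in the KO library of every pair (log2 fold change -0.57, limma p with the block 0.00623, adjusted p 0.273). Trio, a factor with separate domains for Rac and RhoA, was at 858.0 ± 127.4 in KO libraries and 979.7 ± 116.6 in controls (SD, n = 3 each). It too was lower in the KO library of every pair (limma p with the block 0.0287, adjusted p 0.424).

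The list of inhibitors of RhoA, GTPase-activating proteins and dissociation inhibitors, had 14 of 21 tested members above 0 and a median of 0.023. Arhgdib, a dissociation inhibitor best known from blood cells, was at 174, 298 and 335 in KO libraries, against 125, 159 and 256 in controls. It was higher in the KO library of every pair (log2 fold change 0.59, p with the block 0.000891, limma adjusted p = 0.165). Endothelial markers summed to 396, 922 and 885 in KO libraries, against 338, 492 and 671, and leukocyte markers to 336, 108 and 463, against 494, 114 and 385. Their part in the Arhgdib values was not tested. Myo9a, a myosin with a GTPase-activating domain, was at 470.3 ± 58.9 in KO libraries and 548.7 ± 49.0 in controls (SD, n = 3 each). It was lower in the KO library of every pair (limma p with the block 0.0167, adjusted p 0.357).

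Among other phosphatase subunits and inhibitors (13 of 15 tested, 9 below 0, median -0.038), Ppp1ca, the alpha catalytic isoform, was at 278.0 ± 39.6 in KO libraries and 238.0 ± 17.3 in controls (SD, n = 3 each). Ppp1r10, a nuclear targeting subunit, was at 335.0 ± 47.1 and 393.0 ± 51.4 (SD, n = 3 each). The groups overlapped for both genes. Ppp1ca was higher and Ppp1r10 lower in the KO library of every pair. Their limma p with the block was 0.0444 and 0.0222, and their limma adjusted p 0.469 and 0.386.

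The kinases that act on myosin light chain, MYPT1 or CPI-17 had 20 of 22 members tested and a median of -0.010. Dapk2, a calmodulin-dependent kinase of the death-associated family, was at 67, 120 and 164 in KO libraries, against 35, 68 and 102 in controls. It was higher in the KO library of each pair while the groups overlapped (log2 fold change 0.80, p with the block 0.000224, limma adjusted p = 0.142). The pericyte, endothelial, skeletal muscle fibre, erythroid and Schwann cell marker sums were also higher in the KO library of each pair. Those of smooth muscle, fibroblast, leukocyte and satellite cell markers were not. The part of cell composition in the Dapk2 values was not tested. Pkn2, a RhoA-binding kinase, was at 340.3 ± 41.6 in KO libraries and 380.3 ± 15.4 in controls (SD, n = 3 each).

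Myosin and calmodulin genes had a median of 0.010 (12 of 14 tested). Myl12a and Myl12b, regulatory light chains of nonmuscle myosin, were at 198.3 ± 53.3 and 105.0 ± 22.9 in KO libraries, against 151.7 ± 18 and 86.0 ± 19.5 in controls (SD, n = 3 each). Among ROCK and RhoA effectors (21 of 24 tested, 15 above 0, median 0.050), Limk1, the kinase that phosphorylates cofilin, was at 123, 202 and 209 in KO libraries, against 82, 136 and 161 in controls. It was higher in each pair, and with the block its limma adjusted p was 0.169. Cfl1, cofilin itself, was at 348.7 ± 33.6 in KO libraries and 305.7 ± 7.5 in controls (SD, n = 3 each). Of the G proteins upstream (4 of 4 tested, median 0.001), Gnaq, the alpha subunit of Gq, was at 217.0 ± 14.9 in KO libraries and 245.0 ± 16.8 in controls, and Gna13, the alpha subunit of G13, at 273.3 ± 13.3 and 268.7 ± 44.1 (SD, n = 3 each).

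The genes whose pattern over the 6 libraries lay nearest to that of Ppp1r14a, by mean absolute difference of the centred log2 values among 8303 genes, were Ssbp1 (0.029), Zfp513 (0.034), Anapc5 (0.034), Rbmx (0.035) and Tia1 (0.036). Ssbp1 was at 62, 71 and 83 in KO libraries, against 55, 72 and 80 in controls. Like Ppp1r14a, these genes had their lowest value in control library 1, which their choice by nearness over the same libraries favours.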

How the data were processed

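RNA from 3 iSM-G5C-KO and 3 control libraries was made from 5 ng of total RNA with a stranded kit for low input, per the labels' protocols. Per the submitters' processing notes, the tools were Trimmomatic 0.39, STAR 2.6.1d, featureCounts 1.6.5 and DESeq2 1.18.1, on mm10 and GRCm38.p5; no roles are stated. The deposited values are handled as a score. They are whole numbers that the spacing of low values and the table's name mark as gene counts scaled by library and then rounded. Strand use and duplicate removal are not stated. The worth of 1 read, found from how often each whole number occurs, was 0.831, 0.923 and 1.3995 in KO and 0.755, 0.915 and 1.3265 in control libraries 1, 2 and 3, which gave the estimated reads. Whole reads could not be recovered, so no count model was used. The pathway genes had an estimated 230 to 2273 reads per library, a counting error of 6.59% to 2.10%, which covers counting error only.

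The test was limma 3.58.1 (R 4.3.3) on log2(value + 1), 2-sided, with an intensity trend, on genes with a mean of at least 10, with Benjamini-Hochberg adjustment over all of them. Fold changes on this scale understate the change of low genes. The function was tested on simulated data. The genes and lists were chosen with earlier results of these data known, and named list genes follow the rule given with them; 1 list is counted in the totals and not reported here otherwise. Same-numbered libraries had correlated deviations from the group means (0.59, 0.31 and 0.44 over genes), so the numbers were treated as pairing them; no label says what a number marks. Pairs of libraries within a group differed beyond counting noise (chi-square per degree of freedom 3.09 to 10.2), and each counted as 1 replicate. Alternatives were a block, pseudocounts, filters, scalings, no trend, sample weights and leaving out libraries.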

Additional observations from a re-analysis of the deposited data

How the results depend on the processing

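None of the 10 genes passed in any of 20 alternatives, and the smallest limma adjusted p of any was 0.0968, for Ppp1r12b. The fold changes of Rhoa, Arhgef12, Ppp1r12a, Ppp1r12b and Ppp1cb kept their sign in all 20. Rock2 turned to 0.0067 with upper-quartile scaling, to 0.056 with length and GC trends removed (0.056 with the block too), and to 0.012 and 0.0073 with the block and the libraries numbered 2 or 3 left out. Arhgef1 turned to 0.026 and Arhgef11 to 0.049 with sample quality weights, and to 0.0037 and 0.0023 with the trends removed, with or without the block. Arhgef11 also turned to 0.061 with the block and the libraries numbered 1 left out. Leaving out 1 library gave -0.17 to 0.12 for Rock2, -0.12 to 0.042 for Arhgef1, -0.087 to 0.041 for Arhgef11, -0.27 to 0.012 for Rock1, -0.037 to 0.19 for Ppp1r14a, 0.040 to 0.12 for Rhoa, -0.29 to -0.086 for Arhgef12, -0.24 to -0.064 for Ppp1r12a, -0.59 to -0.17 for Ppp1r12b and -0.33 to -0.052 for Ppp1cb. The median of the 10 genes ran from -0.20 without KO library 1 to -0.046 without KO library 2 when 1 library was left out, and was -0.018 with the trends removed. The difference in log2 ratio, with 1 library left out, ran from -0.022 to 0.315 for Arhgef1 to Arhgef12, 0.11 to 0.41 for Ppp1r14a to Ppp1r12a, -0.35 to -0.0095 for Ppp1r12b to Ppp1r12a, 0.067 to 0.28 for Arhgef11 to Arhgef12, -0.15 to -0.043 for Rock1 to Rock2 and 0.037 to 0.086 for Mylk to Ppp1r12a. The number of changed genes over all tested genes was 0, against 1 with the replicate block, 1 with the block and trends removed, 2 with sample quality weights, and with the block it was 61 without the libraries numbered 1 and 1 without those numbered 2. Why these counts differ was not tested. The fits that remove trends or leave out a number were chosen after seeing the data. Median-ratio scaling stood in for TMM factors, since the values are not counts.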
